A study of Mus with 12 samples.

Results

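Prostaglandin synthesis, breakdown and reception were followed through 10 genes in the mouse uterus: Ptgs1, Ptgs2, Ptges, Ptgis, Hpgd, Slco2a1, Ptger2, Ptger3, Ptger4 and Ptgfr. A row of a deposited expression table was taken when it carried 1 of these gene names together with an Ensembl transcript, which gave 1 row per gene, 10 of 87235 rows in the table of E0.5 and E4.5 and 10 of 40787 rows in the table of E18.5 and E15.5. RNA had been sequenced from uteri of 12 pregnant ICR mice, an outbred strain, aged 8 weeks, in 4 groups of 3 libraries with 1 mouse each: E0.5 and E4.5, called the implantation stage, and E15.5 and E18.5, called the labor stage. The labels give no treatment, and the question of the study was which RNAs go with the level of progesterone (P4). The paper places a low point of P4 at E18.5 and its dominance at E4, so E0.5 and E18.5 were taken here as the lower-P4 days. It also describes P4 as low up to E4.5, the end of implantation. The 3 mice of a group were labelled as separate animals, so p-values measure the spread between mice.

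Prostaglandins are short-lived lipid signals made from arachidonic acid, which phospholipases cut from the membrane. The cyclooxygenases Ptgs1 (the form most tissues keep on) and Ptgs2 (the inducible form) make prostaglandin H2, which terminal synthases such as Ptges and Ptgis turn into prostaglandin E2 and prostacyclin. Slco2a1 carries prostaglandins into cells, where Hpgd starts their breakdown, and the receptors Ptger2, Ptger3 and Ptger4 read prostaglandin E2 while Ptgfr reads prostaglandin F2α. In the rodent uterus this system is known for its part in implantation, in decidualization and in the contractions of labor, and in the ovary for ending the life of the corpus luteum.

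Values are FPKM (fragments per kilobase of transcript, scaled to the number of mapped fragments). The implantation table also gave read counts, from 58020989 to 70906881 per library, while the labor table gave FPKM only, so its depth is unknown. The 2 tables had been assembled and normalized apart, so levels were tested only within a table. All 10 rows passed the filter of a mean of at least 0.1 FPKM in both tables. A gene met the study's criterion when its log2 fold change was at least 1 in either direction with an unadjusted p under 0.05, and passed the adjusted p when the Benjamini-Hochberg value over all rows of its table was under 0.05. Fold changes are given as the lower-P4 day over the higher one, E0.5 over E4.5 and E18.5 over E15.5. SE stands for standard error, and a positive log2 value is a higher level at E0.5 or at E18.5.

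Both stages held a library that stood apart. In E4.5 replicate 3, the summed FPKM of 10 ovary markers was 1378 against 4.53 to 6.59 in the other 5 libraries of its table, and all 10 markers were highest there, led by Hsd3b1 (519), Cyp11a1 (378) and Star (238), genes of steroid synthesis. The same library had the lowest value of all 6 smooth muscle markers (summed 188 against 649 to 1073), of all 6 epithelial markers (61.4 against 103 to 231) and of all 5 stromal markers (34.5 against 91.3 to 157). In E15.5 replicate 1, the summed epithelial markers were at 179 FPKM against 262 to 710 in the rest of its table, 6 yolk sac markers at 10.3 against 150.6 to 878, and 5 neutrophil markers at 27.1 against 1.03 to 3.75. Of these 5, S100a8 held 24.0 of the 27.1 FPKM, and this library was the highest in 3. Calls of the 10 genes that rest on either library are given with and without it. Of the further pathway genes, those whose call changed are named. Whether E4.5 replicate 3 held ovary together with uterus is not given in the sources used here and was not tested, so its values may not be those of uterus alone. The summed epithelial, stromal and smooth muscle markers were at 34.5 FPKM or more in all 12 libraries. Yolk sac and trophoblast markers were present at the labor stage, at 10.3 to 878 and 3.87 to 74.5 FPKM in sum.

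At the implantation stage the receptor gene Ptger2 was higher at E4.5, the inducible cyclooxygenase gene Ptgs2 and the prostacyclin synthase gene Ptgis met the study's criterion in favour of E0.5 without passing the adjusted p, and the other cyclooxygenase gene, Ptgs1, met neither. Of the 10 genes, 5 met the study's criterion, Ptgs2 and Ptgis in favour of E0.5 and Ptges, Ptgfr and Ptger2 in favour of E4.5, against 12.2% of all rows tested. Ptger2 alone passed the adjusted p, against 1.22% of rows. In 5 of the genes (Ptgs1, Ptgs2, Ptges, Ptgis and Ptger2) the FPKM values of the groups did not overlap, as in 25.2% of rows. The median log2 fold change of the 10 genes was -0.22, and that of all rows was -0.01. These medians were 0.22 and 0.06 without E4.5 replicate 3, so the sign for the 10 genes turned. Without E4.5 replicate 3 the calls were others: Ptger2, Ptgs2 and Hpgd met the criterion, against 14.4% of rows, and these and Ptgis passed the adjusted p, against 6.28% of rows.

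**Figure D1:**
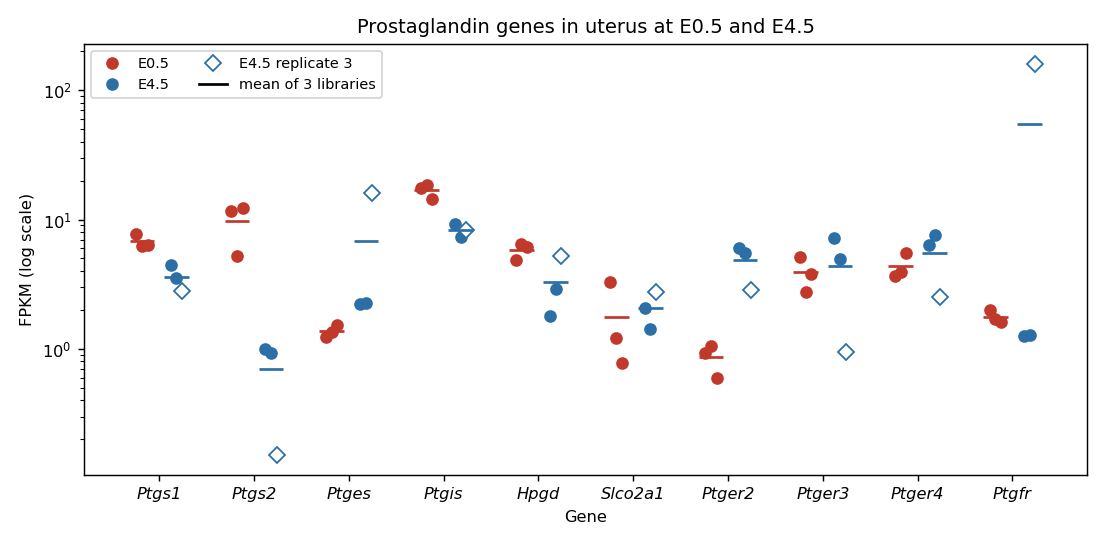
Level of the 10 prostaglandin genes in each library of the implantation stage, in FPKM on a log axis, with a line at the mean of 3 libraries and an open diamond for E4.5 replicate 3. Ptgs2 and Ptgis lay higher in the 3 E0.5 libraries and Ptger2 in the 3 E4.5 libraries, while the diamond of Ptgfr stood at 160 FPKM with its other 5 points between 1.25 and 2.01.

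Ptgs2, the inducible cyclooxygenase, had 11.6, 5.26 and 12.3 FPKM in the libraries of E0.5 and 0.996, 0.936 and 0.151 FPKM in those of E4.5. The lowest E0.5 library was above the highest E4.5 library, and E4.5 replicate 3 was the lowest of all. The counts behind these values were 5240, 2070 and 5701 at E0.5 and as low as 66 in E4.5 replicate 3. The fitted level was 13.8 times higher at E0.5 (log2 fold change 3.79, SE 0.76, unadjusted p = 0.00171, adjusted p = 0.0716 by edgeR, Benjamini-Hochberg). Over 13 alternative fits the log2 fold change stayed between 3.31 and 4.19, and the adjusted p lay between 8e-07 and 0.208 and under 0.05 in 3 of them. One of these was the fit without E4.5 replicate 3 (3.31, SE 0.40, adjusted p = 0.00774 in edgeR's test). The difference was thus present without the library that stood apart. The 3 protein-coding rows nearest to Ptgs2 in profile, by the measure described for Ptgfr, were Slc26a4 (mean absolute log2 difference 0.27), Muc20 (0.40) and Ccn3 (0.42), and Slc26a4, an anion exchanger, had 5.77 to 9.99 FPKM at E0.5 and 0.0584 to 0.668 at E4.5. Per 100 FPKM of summed epithelial markers Ptgs2 was at 5.52, 2.87 and 5.33 FPKM at E0.5, against 0.968, 0.633 and 0.246 at E4.5, so the groups stayed apart on that scale too. In bulk tissue, fewer cells of a type and less RNA per cell cannot be told apart.

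Ptgs1, the other cyclooxygenase, had 7.78, 6.25 and 6.41 FPKM at E0.5, against 4.49, 3.52 and 2.80 at E4.5. All 3 values of E0.5 were above those of E4.5, though by far less than for Ptgs2. The log2 fold change of 0.91 (SE 0.24, unadjusted p = 0.00759, adjusted p = 0.132 by edgeR, Benjamini-Hochberg) was under the size that the study's criterion asks for. The adjusted p ranged from 0.0184 to 0.315 over 13 alternatives and was under 0.05 with DESeq2 alone, and the criterion was met when E4.5 replicate 1 was left out (log2 fold change 1.15, unadjusted p = 0.00234). Per 100 FPKM of epithelial markers the groups overlapped, at 2.77 to 3.72 for E0.5 and 2.38 to 4.55 for E4.5. The part of epithelial content in the Ptgs1 difference was not tested.

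The balance of the 2 cyclooxygenases differed between the days. Ptgs2 made up 59.8%, 45.7% and 65.8% of their summed FPKM in the libraries of E0.5, against 18.2%, 21.0% and 5.12% in those of E4.5. At the labor stage its share was 31.7%, 5.02% and 3.53% at E15.5 and 6.05%, 9.39% and 8.23% at E18.5. Ptgs1 was thus the major cyclooxygenase row at E4.5, E15.5 and E18.5 in every library, and Ptgs2 exceeded it in 2 of the 3 libraries of E0.5.

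Of the terminal synthases, Ptgis, which makes prostacyclin, was the most abundant of the 10 rows at E0.5, with 17.6, 18.3 and 14.5 FPKM against 9.26, 7.37 and 8.28 FPKM at E4.5. The groups were well apart, and E4.5 replicate 3 lay between its 2 companions of that day. The fitted level was 2.03 times higher at E0.5 (log2 fold change 1.02, SE 0.19, adjusted p = 0.0610 by edgeR, Benjamini-Hochberg). Its adjusted p ranged from 0.000253 to 0.223 over 13 alternatives and was under 0.05 in 5 of them, among them the fit without E4.5 replicate 3 (log2 fold change 0.99, adjusted p = 0.0354). As 0.99 is under 1, the study's criterion was lost there, as it was without E0.5 replicate 2 (0.95) and without E4.5 replicate 2 (0.93). Per 100 FPKM of summed smooth muscle markers Ptgis was at 2.72, 1.98 and 1.54 FPKM at E0.5, against 0.863, 1.08 and 4.40 at E4.5, so the groups overlapped on that scale through E4.5 replicate 3, the library with the lowest sum of these markers. The summed endothelial markers moved the other way, with 18.8 to 21.5 FPKM at E0.5 and 29.2 to 53.7 FPKM at E4.5. Per 100 FPKM of endothelial markers Ptgis was at 93.6, 85.4 and 77.0 at E0.5, against 17.2, 19.0 and 28.4 at E4.5, without overlap. The part of either cell type in the Ptgis difference was not tested.

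Ptges, the inducible prostaglandin E synthase, had 1.23, 1.34 and 1.53 FPKM at E0.5, against 2.21, 2.26 and 16.1 at E4.5. E4.5 replicate 3 was far above its own group, and its 2 companions also lay above every E0.5 library. With all libraries the fit gave 4.84 times more at E4.5 (log2 fold change -2.27, SE 0.79, adjusted p = 0.218 by edgeR, Benjamini-Hochberg). Without E4.5 replicate 3 this came to 1.65 times (log2 fold change -0.72, SE 0.21, unadjusted p = 0.0122, adjusted p = 0.108), over a range of 0.0239 to 0.446 among 13 alternatives. Without any 1 of the E0.5 libraries the unadjusted p was 0.0630 to 0.0795. The call by the study's criterion thus rested on 4 libraries.

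Hpgd, which inactivates prostaglandins, had 4.86, 6.44 and 6.11 FPKM at E0.5, against 1.81, 2.90 and 5.21 at E4.5. The groups overlapped through E4.5 replicate 3, and with it the log2 fold change was 0.85 (SE 0.36, adjusted p = 0.301 by edgeR, Benjamini-Hochberg). Without that library Hpgd was 2.46 times higher at E0.5 (log2 fold change 1.30, SE 0.25, adjusted p = 0.0317), the lowest value in a range of 0.0317 to 0.516 over 13 alternatives. Slco2a1, the prostaglandin transporter, had 3.29, 1.21 and 0.777 FPKM at E0.5, against 2.09, 1.42 and 2.74 at E4.5. Its E0.5 libraries spanned the values of E4.5, and the log2 fold change was -0.24 (SE 0.53). Leaving out E0.5 replicate 1 gave -1.04 (unadjusted p = 0.0328, adjusted p = 0.338 by edgeR, Benjamini-Hochberg), and leaving out E0.5 replicate 3 gave 0.10. Its direction was thus set by single libraries.

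Ptger2, a receptor that raises cyclic AMP on binding prostaglandin E2, had 0.936, 1.06 and 0.592 FPKM at E0.5, against 6.07, 5.55 and 2.86 at E4.5. Every E4.5 library was above every E0.5 library, and E4.5 replicate 3 was the lowest of its day. The counts were 761, 749 and 492 at E0.5 and 4910, 4312 and 2212 at E4.5. The fitted level was 5.59 times higher at E4.5 (log2 fold change -2.48, SE 0.38, unadjusted p = 0.000381, adjusted p = 0.0417 by edgeR, Benjamini-Hochberg). Without E4.5 replicate 3 it came to -2.77 on the log2 scale (adjusted p = 0.00325 by edgeR, Benjamini-Hochberg), and without any 1 of the other 5 libraries the adjusted p was 0.102 to 0.159. Over all 13 alternatives it was 7.12e-08 to 0.159 and under 0.05 in 7, with log2 fold changes of -2.77 to -2.24. Per 100 FPKM of summed stromal markers Ptger2 was at 0.991, 0.962 and 0.377 FPKM at E0.5, against 6.65, 3.89 and 8.31 at E4.5. On that scale E4.5 replicate 3 was the highest library and the groups stayed apart. The 5 stromal markers did not move together: Dcn, the most abundant at E0.5, went from 70.9 to 116 FPKM there to 22.1 to 40.7 at E4.5, while Hand2 was at 1.67 to 2.75 FPKM at E0.5 and at 22.0, 20.6 and 1.13 at E4.5. Taken per single marker, the days stayed apart for Dcn, Pdgfra and Hoxa10 and overlapped for Hand2 and Hoxa11. Per FPKM of Hand2, Ptger2 was at 0.561, 0.597 and 0.215 at E0.5, against 0.276, 0.269 and 2.54 at E4.5. On the scale of Hand2 only E4.5 replicate 3 was above all E0.5 libraries. The part of stromal content in the Ptger2 difference was not tested.

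Ptger3, whose product lowers cyclic AMP, had 5.17, 2.76 and 3.77 FPKM at E0.5, against 7.19, 4.998 and 0.950 at E4.5. Ptger4, which like Ptger2 raises cyclic AMP, had 3.66, 3.95 and 5.54 FPKM at E0.5, against 6.36, 7.53 and 2.52 at E4.5. In both genes E4.5 replicate 3 was the lowest library and its 2 companions were higher than most or all of the E0.5 libraries. The log2 fold changes were -0.19 (SE 0.67) and -0.32 (SE 0.42). Without E4.5 replicate 3 both were -0.67, with adjusted p-values of 0.253 and 0.136 by edgeR, Benjamini-Hochberg, the lowest over their alternatives, the highest of which were 0.997 and 0.972. Together with Ptger1, the fourth receptor for prostaglandin E2, which had 1.66 to 2.41 FPKM in the 6 libraries, Ptger2 held 8.03%, 11.0% and 4.81% of the summed receptor FPKM at E0.5 and 28.3%, 27.3% and 35.8% at E4.5. Its share was higher in each E4.5 library than in any E0.5 library, including the one that stood apart. The share was 11.6% to 15.8% at E15.5 and 11.9% to 18.8% at E18.5.

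**Figure D2:**
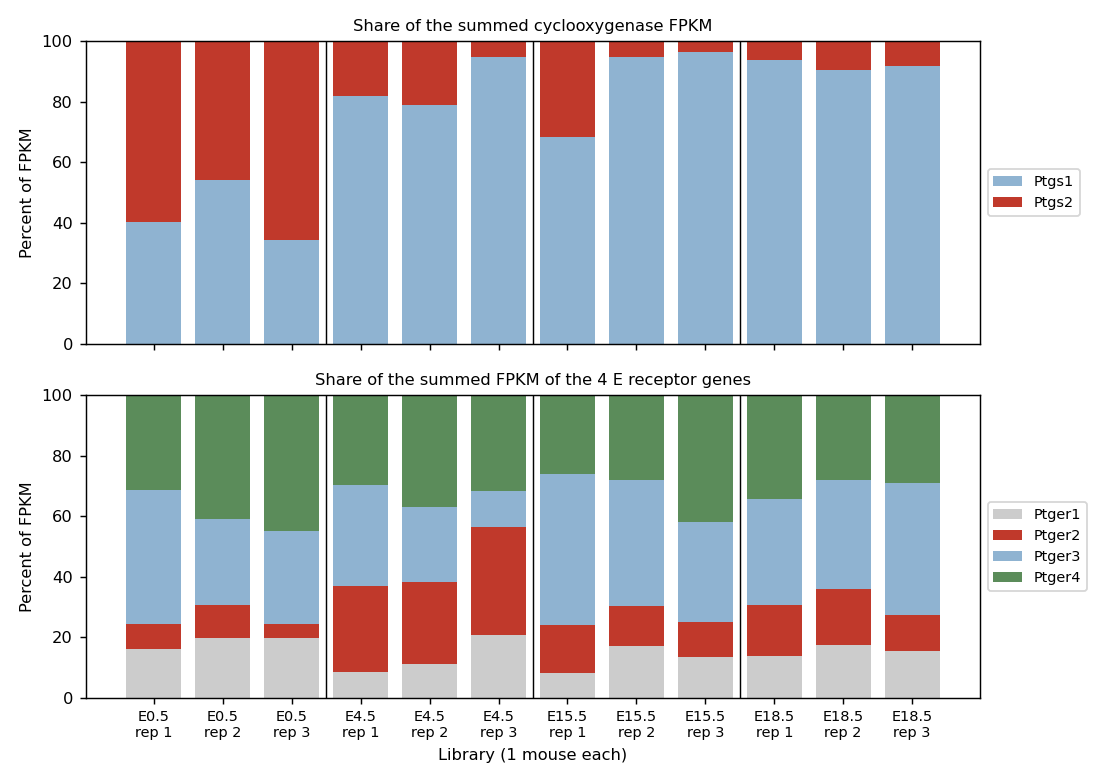
Share of each gene, in percent, in the summed FPKM of the 2 cyclooxygenase genes (upper panel) and of the 4 prostaglandin E2 receptor genes (lower panel) in each of the 12 libraries, with lines between the days. Ptgs2 held 45.7% to 65.8% of cyclooxygenase FPKM at E0.5 and 5.12% to 21.0% at E4.5, and Ptger2 held 27.3% to 35.8% of receptor FPKM at E4.5 and at most 18.8% on the other days.

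Ptgfr, the receptor for prostaglandin F2α, had 2.01, 1.70 and 1.60 FPKM at E0.5, against 1.25, 1.28 and 160 at E4.5. The value of 160 belonged to E4.5 replicate 3, with 88144 counts against 709 to 1164 in the other 5 libraries, and in that library Ptgfr made up 79.4% of the summed FPKM of the 10 genes. Its 2 companions of that day lay below all 3 of E0.5. With this library included, the log2 fold change was -4.88 with an SE of 1.903 (unadjusted p = 0.0384, adjusted p = 0.263 by edgeR, Benjamini-Hochberg). Without it the direction turned, to 0.47 (SE 0.19, unadjusted p = 0.0451, adjusted p = 0.222, in a range of 0.215 to 0.850 over 12 alternatives). DESeq2 gave no p-value for this gene. The call of a higher Ptgfr level at E4.5 therefore rested on the library with the 10 ovary markers, whose part in this value was not tested. Leaving out any 1 of the E0.5 libraries also ended it, with unadjusted p-values of 0.102 to 0.107.

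Likeness to Ptgfr was measured as the mean absolute difference of log2(FPKM + 0.1) profiles over the 6 libraries, each profile centred on its own mean so that the level does not count. Among 11682 protein-coding rows of at least 1 FPKM on average, the 3 rows most like Ptgfr were Cyp17a1 (difference 0.11), Amhr2 (0.13) and Ces2a (0.16). Cyp17a1, an enzyme of androgen synthesis, had 12.7 FPKM in E4.5 replicate 3 and at most 0.0561 elsewhere. Amhr2, the receptor for anti-Müllerian hormone, had 23.9 FPKM there and at most 0.201 elsewhere. Both are known from the gonads. These rows, like Ces2a, reached the mean of 1 FPKM only through E4.5 replicate 3, so their likeness to Ptgfr describes that library alone. A pair of short unannotated rows inside the Ptgfr gene, at 151824007 to 151824777 and 151830421 to 151831014 of chromosome 3, had 22.4 and 57.1 FPKM in this library and at most 1.87 in the other 5. The ovary markers Cyp19a1, Fshr, Zp3 and Gdf9, were listed at 0 in at least 2 of the other 5 libraries and had 1.79, 3.63, 10.4 and 18.9 FPKM in E4.5 replicate 3.

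**Figure D3:**
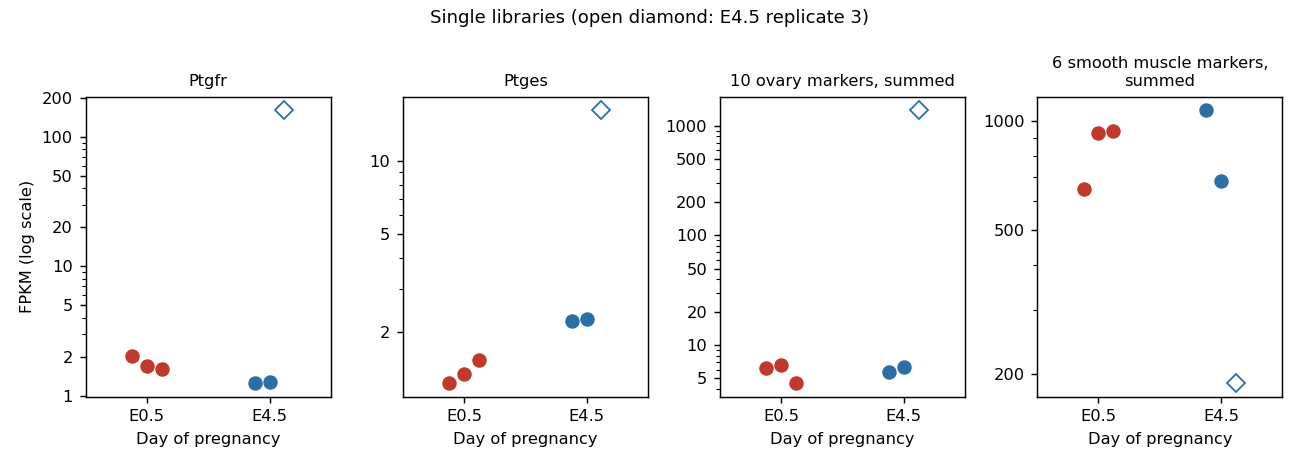
FPKM (log axes with their own ranges) of Ptgfr, of Ptges, of 10 ovary markers in sum and of 6 smooth muscle markers in sum, for each E0.5 library (red) and E4.5 library (blue), with an open diamond for E4.5 replicate 3. The diamond stood at 160, 16.1 and 1378 FPKM in the first 3 panels, far above the other 5 libraries, and at 188 FPKM, below all of them, in the smooth muscle panel.

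The rest of the pathway was described through 24 further genes of prostaglandin release, synthesis, conversion, export and reception, of which 22 passed the filter in each table. At the implantation stage 3 of the 22 met the study's criterion in favour of E0.5, against 6.37% of all rows in that direction, and 1 in favour of E4.5, against 5.82%. None of the 22 passed the adjusted p in edgeR's test, and 7 had an unadjusted p under 0.05, against 17.0% of all rows. DESeq2 placed 5 of the 22 past the adjusted p, against 9.99% of all rows, and limma placed 1, against 1.51%. The median log2 fold change of the 22 was -0.27, and without E4.5 replicate 3 that of the 21 then tested was 0.09. Without E4.5 replicate 3, 21 of them were tested and 7 met the criterion, against 14.4% of rows: Pla2g4a, Tbxas1, Ptgir, Ptgdr and, newly, Ptges2, Ptgds and Akr1c18. The adjusted p was then passed by 4, Ptgdr, Ptges2, Ptgfrn and Pla2g4a, against 6.28% of rows. Ptges2 had 3.63, 2.96 and 3.16 FPKM at E0.5, against 1.44, 1.45 and 2.80 at E4.5 (log2 fold change 0.79 with all libraries). Ptgds had 38, 34 and 15 counts at E0.5 and 2, 0 and 202 at E4.5 (log2 fold change -1.16 with all libraries), so its call rested on few counts.

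Pla2g4a, the phospholipase that releases arachidonic acid, had 8.99, 7.78 and 10.1 FPKM at E0.5, against 3.30, 5.19 and 4.23 at E4.5, with 1.09 as the log2 fold change (SE 0.20, adjusted p = 0.0596 by edgeR, Benjamini-Hochberg). Its groups did not overlap, and its size was close to that of Ptgis. Tbxas1, the thromboxane synthase, had 0.802, 0.831 and 0.533 FPKM at E0.5, against 0.263, 0.343 and 0.326 at E4.5 (log2 fold change 1.23, SE 0.26). Ptgir, the prostacyclin receptor, had 0.919, 0.955 and 0.434 FPKM at E0.5, against 0.372, 0.317 and 0.310 at E4.5 (log2 fold change 1.21, SE 0.40).

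Ptgdr, a receptor for prostaglandin D2, had 7, 14 and 0 counts at E0.5 and 615, 1501 and 48 counts at E4.5, or 2.27, 5.77 and 0.183 FPKM at E4.5 with at most 0.0566 at E0.5. The fitted log2 fold change was -6.59 (SE 1.60, unadjusted p = 0.00473, adjusted p = 0.108 by edgeR, Benjamini-Hochberg), a value that rests on the few counts of E0.5. Without E4.5 replicate 3 the adjusted p was 0.00989, in a range of 3.97e-06 to 0.309 over 13 alternatives. Ptges3, a cytosolic prostaglandin E synthase and cochaperone, had 19.9, 14.5 and 19.0 FPKM at E0.5, against 28.3, 28.3 and 30.6 at E4.5 (log2 fold change -0.70, SE 0.17). Ptgfrn, a membrane protein that binds and inhibits the prostaglandin F2α receptor, had 16.2, 17.4 and 14.6 FPKM at E0.5, against 9.81, 8.63 and 9.23 at E4.5 (log2 fold change 0.81, SE 0.16, adjusted p = 0.0723 by edgeR, Benjamini-Hochberg). Akr1c18, an aldo-keto reductase that inactivates progesterone and is also listed as a prostaglandin F synthase, had 4.13, 1.52 and 4.21 FPKM at E0.5 and was listed at 0 and at 0.248 and 399 FPKM at E4.5. The value of 399 was again that of E4.5 replicate 3, and the log2 fold change went from -5.28 to 4.65 without it (adjusted p = 0.386 and 0.0777 by edgeR, Benjamini-Hochberg). The fit without that library rested on 0 and 26 counts at E4.5, against 136 to 444 at E0.5. The antisense rows Ptgs2os and Ptgs2os2, named as antisense to Ptgs2, were below the filter in both tables.

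At the labor stage Ptgs1, Ptgs2 and Slco2a1 had all 3 values of E18.5 above all 3 of E15.5, and the other 7 genes overlapped between the days. Non-overlap was found in 19.9% of the rows tested. Ptgs1 and Ptgs2 met the study's criterion, both in favour of E18.5, against 6.05% of rows in either direction, 3.11% in that direction and 2.93% in the other. None of the 10 passed the adjusted p in limma's test with the trend, which 0.0259% of rows did, or without it, which 0.0873% did, and 3 had an unadjusted p under 0.05, against 12.2% of rows. The median log2 fold change of the 10 genes was 0.04, and that of all rows was 0.02. These medians were 0.24 and 0.03 without E15.5 replicate 1. Without E15.5 replicate 1, Ptgs1 and Ptgs2 were again the 2 genes that met the criterion, against 5.02% of rows, and none of the 10 passed the adjusted p in limma's test, against 0.0940%, while 3 had an unadjusted p under 0.05, against 10.6%.

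**Figure D4:**
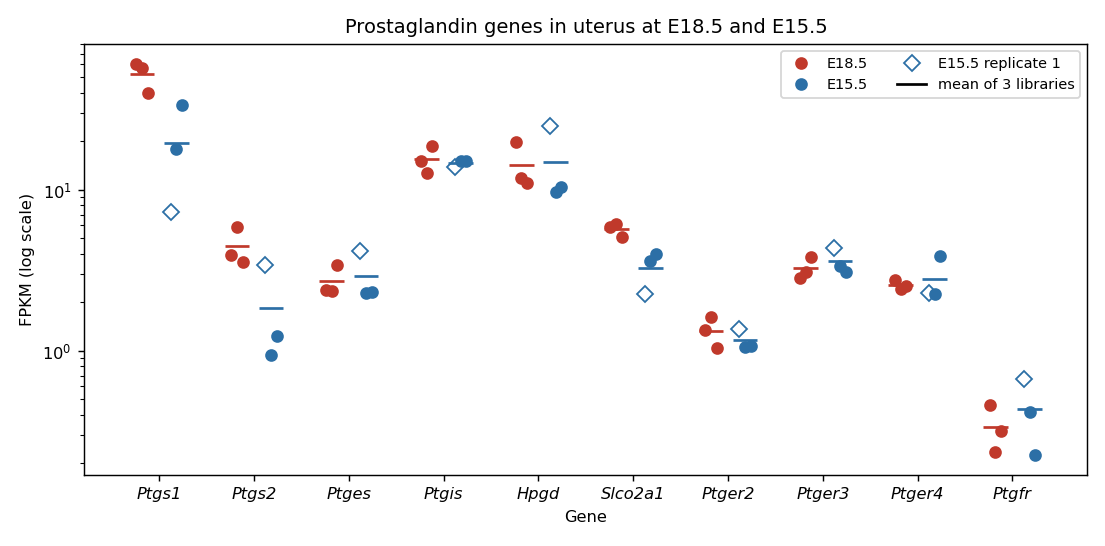
Level of the 10 prostaglandin genes in each library of the labor stage, in FPKM on a log axis, with a line at the mean of 3 libraries and an open diamond for E15.5 replicate 1. Ptgs1, Ptgs2 and Slco2a1 lay higher in the 3 E18.5 libraries, and Ptgfr was the lowest row on both days, at 0.224 to 0.668 FPKM.

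Ptgs1 was the most abundant of the 10 rows at E18.5, with 60.7, 56.9 and 39.7 FPKM, and had 7.31, 17.8 and 33.5 FPKM at E15.5. The E15.5 libraries spread far more widely than those of E18.5, and the lowest was E15.5 replicate 1. The log2 fold change was 1.65 (SE 0.51, unadjusted p = 0.0153, adjusted p = 0.282 by limma, Benjamini-Hochberg), or 3.14 times on the log2(FPKM + 0.1) scale. Without E15.5 replicate 1 it was 1.07 (SE 0.32, unadjusted p = 0.0162, adjusted p = 0.336, in a range of 0.123 to 0.577 over 13 alternatives), and without E15.5 replicate 3 it was 2.16. The epithelial markers followed the same order, with 179, 262 and 362 FPKM in sum at E15.5 and 710, 537 and 514 at E18.5, and 5 of their 6 genes did not overlap between the days. Per 100 FPKM of these markers Ptgs1 was at 4.09, 6.82 and 9.24 FPKM at E15.5 and 8.55, 10.6 and 7.72 at E18.5, so the groups overlapped on that scale. The part of epithelial content in the Ptgs1 difference was not tested.

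Ptgs2 had 3.91, 5.89 and 3.56 FPKM at E18.5, against 3.39, 0.943 and 1.23 at E15.5. The highest E15.5 library, replicate 1, came close to the lowest of E18.5, while its 2 companions lay far below. The log2 fold change was 1.40 (SE 0.46, unadjusted p = 0.0191, adjusted p = 0.302 by limma, Benjamini-Hochberg), or 2.63 times. Without E15.5 replicate 1 it was 1.92 (SE 0.26, unadjusted p = 0.000423, adjusted p = 0.124, in a range of 0.124 to 0.553 over 13 alternatives). The criterion was lost without E15.5 replicate 2 (log2 fold change 1.05, unadjusted p = 0.0596), without E15.5 replicate 3 (1.22, 0.0594) and without E18.5 replicate 2 (1.18, 0.0648). The summed trophoblast markers had a like order, with 56.9, 74.5 and 43.4 FPKM at E18.5, against 34.8, 4.55 and 3.87 at E15.5, most of it from Tpbpa at E18.5. Of the 6 markers with a row, Tpbpa alone had all 3 values of E18.5 above those of E15.5, and Prl3d1 was listed at 0 in the 3 libraries of E18.5. Per 100 FPKM of these markers Ptgs2 was at 6.87, 7.91 and 8.198 FPKM at E18.5, against 9.74, 20.7 and 31.7 at E15.5, so on that scale every E15.5 library lay above every E18.5 library. On the scale of epithelial markers the days overlapped, with 0.551, 1.10 and 0.693 FPKM at E18.5 and 1.895, 0.361 and 0.338 at E15.5, and so they did on that of smooth muscle markers, with 0.143, 0.185 and 0.102 against 0.156, 0.0399 and 0.0394. The 5 mast cell markers were at 17.1, 17.9 and 26.8 FPKM in sum at E18.5, against 16.8, 9.32 and 8.39 at E15.5, again with E15.5 replicate 1 just under the E18.5 libraries. Of these, 3 (Cpa3, Mcpt4 and Tpsb2) did not overlap between the days. Cma1 and Kit overlapped, and Kit went the other way, at 1.35, 1.56 and 1.26 FPKM at E18.5 against 3.23, 2.03 and 1.46 at E15.5. On the scale of the 5 mast cell markers Ptgs2 overlapped, at 22.9, 32.9 and 13.3 against 20.1, 10.1 and 14.6. Of the neutrophil markers, S100a8 was at 24.0 FPKM in E15.5 replicate 1 and at most 1.08 in the other 5 libraries, while S100a9 was at 2.94 against at most 2.40, and Camp and Ngp were highest in other libraries. The part of these cell types in the Ptgs2 levels was not tested. The 3 protein-coding rows nearest to Ptgs2 in centred profile, of 11566, were Zfp451 (mean absolute log2 difference 0.24), Inhba (0.28) and Serpinb9f (0.30), each with E15.5 replicate 1 above its 2 companions of that day. Inhba, a subunit of activin, had 18.49, 14.4 and 7.72 FPKM at E18.5, against 11.3, 3.18 and 3.78 at E15.5.

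Slco2a1 had 5.87, 6.13 and 5.12 FPKM at E18.5, against 2.25, 3.59 and 4.001 at E15.5. The groups did not overlap and E15.5 replicate 1 was the lowest library. The log2 fold change of 0.81 (SE 0.23, unadjusted p = 0.00934, adjusted p = 0.241 by limma, Benjamini-Hochberg) was under the size of the criterion, and it was 0.57 without E15.5 replicate 1. The summed endothelial markers went the other way, from 141 to 171 FPKM at E15.5 to 69.6 to 98.1 at E18.5. The largest part was Cdh5, at 101 to 129 FPKM at E15.5 and 32.8 to 63.8 at E18.5. Of the 5 genes, 3 were higher in every E15.5 library, while Kdr (8.74 to 10.0 against 8.36 to 9.23) and Tek overlapped. Hpgd had 19.9, 11.8 and 11.0 FPKM at E18.5, against 24.8, 9.64 and 10.4 at E15.5, with 1 high library on each day, and its log2 fold change was 0.02 (SE 0.40). E15.5 replicate 1 was thus the highest library in the enzyme of breakdown and the lowest in the transporter that feeds it.

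The synthases and receptors among the 10 genes had log2 fold changes between -0.24 and 0.17 at the labor stage. Ptgis had 12.7 to 18.8 FPKM at E18.5 and 13.8 to 15.2 at E15.5 (log2 fold change 0.06, SE 0.16). Ptges had 2.33 to 3.39 and 2.28 to 4.18 FPKM (-0.07, SE 0.28). Among the prostaglandin E2 receptors, Ptger2 had 1.04 to 1.61 FPKM at E18.5 and 1.05 to 1.37 at E15.5 (0.17, SE 0.23), Ptger3 had 2.84 to 3.83 and 3.07 to 4.32 (-0.13, SE 0.19), and Ptger4 had 2.40 to 2.76 and 2.25 to 3.88 (-0.08, SE 0.24). These 5 genes had adjusted p-values of 0.793 to 0.939 by limma, Benjamini-Hochberg. Ptgfr had 0.458, 0.235 and 0.319 FPKM at E18.5, against 0.668, 0.415 and 0.224 at E15.5, the lowest mean level of the 10 rows on both days (log2 fold change -0.24, SE 0.40). Its values overlapped fully, and the rows nearest to it in centred profile were the histone gene Hist1h3e (mean absolute log2 difference 0.10), Gm10130 (0.11) and the histone gene Hist1h2ai (0.13).

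The order of levels within a day was not the same on all days. At E0.5 Ptgis led, above every other row in all 3 libraries, followed by Ptgs2, Ptgs1 and Hpgd, whose ranges overlapped. At E18.5 Ptgs1 led with 52.4 ± 11.2 FPKM (SD, n = 3) and its range lay above that of all others, followed by Ptgis (15.497 ± 3.10) and Hpgd (14.2 ± 4.94), which overlapped. At E15.5 the same 3 genes led with overlapping ranges, and their lowest value, 7.31 FPKM, was above the highest value of the other 7, 4.32 FPKM. At E4.5 the first 9 ranks overlapped from neighbour to neighbour, and Ptgs2 came last with 0.694 ± 0.471 FPKM.

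**Figure D5:**
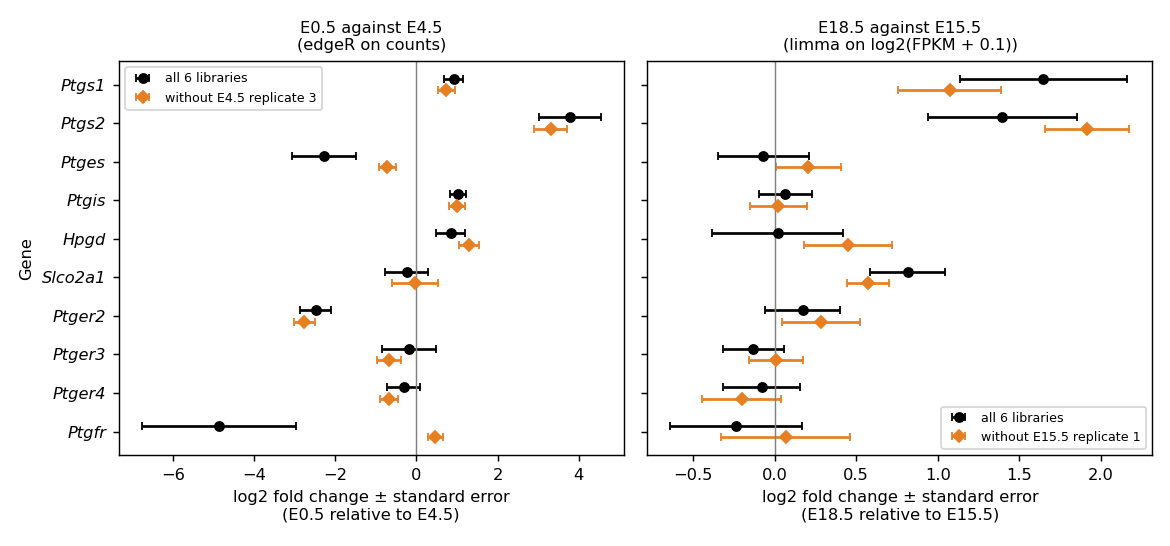
Log2 fold change with its standard error for each of the 10 genes, in the implantation stage (left, edgeR on counts, E0.5 over E4.5) and in the labor stage (right, limma on log2(FPKM + 0.1), E18.5 over E15.5), with all 6 libraries (black) and without the library that stood apart (orange). Ptgfr moved from -4.88 to 0.47 and Ptges from -2.27 to -0.72 without E4.5 replicate 3, while Ptgs2, Ptgis and Ptger2 stayed near their values.

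Of the 22 further pathway genes tested at the labor stage, 1 met the study's criterion, against 6.05% of all rows, and 3 had an unadjusted p under 0.05, against 12.2%. The adjusted p of limma, with or without the trend, was passed by none of them, and their median log2 fold change was 0.26. Without E15.5 replicate 1 that median was 0.04, and that of all rows was 0.03. The gene that met the criterion was Hpgds, a prostaglandin D synthase, with 23.4, 21.8 and 13.3 FPKM at E18.5, against 3.02, 6.86 and 12.5 at E15.5 (log2 fold change 1.55, SE 0.50, unadjusted p = 0.0174). Without E15.5 replicate 1 it was 1.02 (unadjusted p = 0.0279), and the criterion was lost without E18.5 replicate 1 (1.40, unadjusted p = 0.0543) and without E18.5 replicate 2 (1.45, 0.0516). Its libraries ranked as those of Ptgs1 did, with E15.5 replicate 1 lowest and replicate 3 just under the lowest E18.5 library. Akr1c18 was the most abundant gene of the pathway at this stage, with 843, 721 and 665 FPKM at E18.5, against 323, 415 and 635 at E15.5 (log2 fold change 0.75, SE 0.32, adjusted p = 0.418 by limma, Benjamini-Hochberg). Ptgfrn, the inhibitor of the prostaglandin F2α receptor, had 16.0, 14.0 and 14.2 FPKM at E18.5 and 8.33, 11.2 and 12.1 at E15.5 (log2 fold change 0.49, SE 0.17, adjusted p = 0.312 by limma, Benjamini-Hochberg). Its days did not overlap at either stage, with the higher values on the lower-P4 day. Non-overlap in either direction was found in 19.9% of rows at this stage and in 25.2% at the implantation stage. Ptges3 had 35.3, 32.1 and 29.6 FPKM at E18.5 and 26.5, 26.0 and 28.9 at E15.5 (log2 fold change 0.25, SE 0.12). Cbr1, which converts prostaglandin E2 to F2α, had 12.2 to 12.7 FPKM at E18.5 and 4.94 to 13.7 at E15.5, and Abcc4, a prostaglandin exporter, had 10.9 to 12.5 and 4.74 to 14.5 FPKM. In both, E15.5 replicate 1 was the lowest library, and without it their log2 fold changes went from 0.50 to 0.079 and from 0.29 to -0.20.

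Whether the day effect differed between the stages was tested in 1 limma model over all 12 libraries, as the log2 difference at the implantation stage minus that at the labor stage, over 22056 pairs of rows. Ptger2 was the only 1 of the 10 genes past the adjusted p, which 2.64% of pairs passed. Its log2 differences on the log2(FPKM + 0.1) scale were -2.32 for the implantation stage and 0.17 for the labor stage, a difference of -2.49 (SE 0.43, adjusted p = 0.0162 by limma, Benjamini-Hochberg). Over 17 alternatives the adjusted p was 0.00218 to 0.0532, with values over 0.05 without E15.5 replicate 2 (0.0511) and without E18.5 replicate 2 (0.0532). The median of this difference over all pairs was -0.13. Ptgis, at 1.01 and 0.06, differed by 0.95 (SE 0.24, adjusted p = 0.0587, in a range of 0.0496 to 0.142). Ptgs2, at 3.80 and 1.40, was higher on the lower-P4 day in both stages, and the difference of 2.41 (SE 0.85) had an adjusted p of 0.162. Ptgs1, at 0.92 and 1.65, also had the same direction in both, with a difference of -0.73 (SE 0.61, adjusted p = 0.572). Of the further pathway genes, Ptges3 passed the adjusted p with a difference of -0.97 (SE 0.21, adjusted p = 0.0350 by limma, Benjamini-Hochberg), with its values higher at E4.5 and, by less, at E18.5. Over 17 alternatives its adjusted p was 0.0321 to 0.118 and under 0.05 in 6 of them. It was over 0.05 without the trend (0.0591), with the replicate block (0.118) and when any library but E0.5 replicate 1, E4.5 replicate 3 or E15.5 replicate 1 was left out (0.0543 to 0.0975). The other 6 genes differed by -1.61 (Ptgfr) to 0.89 (Hpgd), with adjusted p-values of 0.312 to 0.933 by limma, Benjamini-Hochberg.

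Each row of the implantation table lay over the RefSeq gene of its name in GRCm38. Ptgs2 was at 150100031 to 150108227 of chromosome 1 and Ptgs1 at 36227522 to 36252272 of chromosome 2, both on the plus strand. Ptger2 was at 44988195 to 45003820 of chromosome 14 on the plus strand, and Ptgfr at 151796502 to 151837630 of chromosome 3 on the minus strand. The rows are whole assembled genes, with exons and introns inside these bounds. For 4 of the 10 the row also reached over other genes, so reads may be shared: Ptges (with Gm52550), Ptgis (1110018N20Rik and Gm52569), Ptger4 (Gm15937 and Ttc33) and Slco2a1 (Gm22595 and Gm31434). The row of Ptger4 extended 26738 bases past its RefSeq gene, that of Slco2a1 18349 bases and that of Ptgis 11389 bases. A further 22 rows of the implantation table carried the name of 1 of 8 of these genes but no known transcript, and 20 of them lay inside the row of that gene. Of these 22 rows, 12 had the direction of the gene's own row and 1 met the study's criterion, against 12.2% of all rows, a stretch inside Ptgis at 167196439 to 167197489 of chromosome 2 (log2 fold change 1.28). The row just past the end of Ptgs1, at 36253875 to 36258593, where RefSeq still places that gene, had 3.57, 2.24 and 2.43 FPKM at E0.5, against 1.69, 1.27 and 1.57 at E4.5. Its days did not overlap, as those of Ptgs1 did not. At the labor stage 3 such rows were tested, 2 of Ptger4 and 1 of Ptgs1, and the last met the criterion, against 6.05% of rows, with 10.4, 9.71 and 6.15 FPKM at E18.5 and 2.03, 3.49 and 6.81 at E15.5 (log2 fold change 1.20, unadjusted p = 0.0270).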

How the data were processed

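Uterine RNA of 12 mice had been sequenced as paired ends. The labels give poly(A) selection and a NovaSeq instrument, while the study's methods give removal of ribosomal RNA and a HiSeq instrument. By those methods the authors used Cutadapt for trimming, Bowtie2 and TopHat2 for mapping, StringTie for assembly and Ballgown for the FPKM values. The submitters' processing notes name Bowtie 0.12.2, HISAT2 2.0, StringTie 1.3.0 and the builds mm8 and mm10. The deposited FPKM values came in 2 tables, 1 per stage. The deposited counts stood beside the FPKM of the implantation table, and how they were made is not given in the sources used here. In that table a 0 is written as 0.0001, and all 168941 such values had a count of 0. Rows with no gene name, which are assembled loci with an identifier of their own, held 1.02% to 1.86% of counts and were kept in library sizes and tests.

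Counts of E0.5 and E4.5 were tested with the quasi-likelihood F-test of edgeR 4.0.16 and its TMM factors (SE is the log2 fold change over the root of F), the FPKM of E18.5 and E15.5 with limma 3.58.1 with trend on log2(FPKM + 0.1), a scale that understates changes of low genes, and the difference between the stages with the same limma model over 12 libraries and rows that share Ensembl transcripts. Rows needed a mean of at least 0.1 FPKM, and p-values were adjusted by Benjamini-Hochberg over all rows. DESeq2 1.42.0, other normalizations, filters and pseudocounts, a replicate block and leaving out each library were alternatives. The scripts were tested on simulated data. An exact permutation test of 3 against 3 libraries cannot go below 0.1. The genes named were the 10 members, further pathway genes that met the criterion, with or without the library that stood apart, or had a mean of at least 10 FPKM, and the 3 rows nearest in profile to Ptgs2 and Ptgfr. Beyond this rule, Ptger1 was named for the receptor shares and Ptgs2os and Ptgs2os2 as antisense rows. Members and lists were chosen with earlier results of these data known. Gene positions were compared with RefSeq of GRCm38.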

Additional observations from a re-analysis of the deposited data

Results flagged for a closer look

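Ptger2 was singled out by the test of the difference between the stages. Its level at the lower-P4 day relative to the higher one was below 0 on the log2 scale at the implantation stage (-2.32) and slightly above 0 at the labor stage (0.17), and these differed by -2.49 (SE 0.43, adjusted p = 0.0162 by limma, Benjamini-Hochberg). At the implantation stage all 3 E4.5 libraries were above all 3 E0.5 libraries, and at the labor stage the days overlapped.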

How the results depend on the processing

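At the implantation stage, the number of the 10 genes that met the study's criterion went from 5 to 3 with limma on log2(FPKM + 0.1), against 12.9% of all rows. With 1 library left out it was 2 to 6, in fits where 5996 of 59569 to 8391 of 58151 rows met it. The number past the adjusted p went from 1 (1.22% of all rows) to 3 with limma (1.51%), 5 with DESeq2 (9.99%), 2 with upper-quartile factors (1.39%), 2 with a mean of at least 1 FPKM (3.15%) and 0 with the replicate block, where no row passed. With 1 library left out it was 0 to 4, in fits where 0 of 59569 to 3652 of 58151 rows passed. At the labor stage, the number meeting the criterion was 1 to 2 with 1 library left out, against 2. In these fits 1548 of 30855 to 2415 of 30896 rows met it. For the difference between the stages, 0 to 2 genes passed the adjusted p with 1 library left out, against 1. These fits placed 0.875% to 5.88% of all pairs past it, and the fit with 2 genes (Ptger2 and Ptgis, without E18.5 replicate 3) 1.35%. Directions turned for small effects: Ptger3 at the implantation stage was at 0.19 with limma and 0.17 with the replicate block, and Hpgd at the labor stage was at -0.0064 with quantile normalization.

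With 1 library left out, the log2 fold change at the implantation stage ranged from -5.47 to 0.47 for Ptgfr, -0.67 to 0.43 for Ptger3 and -1.04 to 0.10 for Slco2a1. At the labor stage it ranged from -0.24 to 0.21 for Ptges, -0.085 to 0.20 for Ptgis, -0.25 to 0.45 for Hpgd, -0.56 to 0.066 for Ptgfr, -0.25 to 0.0068 for Ptger3 and -0.21 to 0.17 for Ptger4. The difference between the stages ranged from -2.76 to 0.69 for Ptgfr, -0.52 to 0.88 for Ptger3 and -0.59 to 0.18 for Ptger4. The causes were not tested.

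Replicate numbers were shared between the groups, with no sign that they pair the mice: same-numbered libraries correlated at -0.06 to 0.02 in their deviations from the group means. With 3 libraries a group, such values cannot settle whether there was a pairing. With the replicate block, no row of the whole implantation table passed the adjusted p in edgeR's test (8204 had an unadjusted p under 0.05), against 730 without it. That count was 5816 with DESeq2, 1156 with a mean of at least 1 FPKM and 0 to 3652 with 1 library left out, the highest without E4.5 replicate 3. Rows meeting the criterion at the labor stage went from 1870 to 514 with a pseudocount of 1 and 799 with a mean of at least 1 FPKM. With upper-quartile factors, 4261 of the rows that met the criterion at the implantation stage were higher at E0.5 and 3100 lower, against 3807 and 3477. The labor table holds no counts, so no count test and no limit of detection could be had there, and 3 mice a group with 1 that stands apart in each stage limit what the tests can show.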
